A study of Mus musculus with 6 samples.

Results

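The MHC and antigen presentation genes are the protein-coding genes of the deposited table whose symbols start with H2- (34 genes), together with 11 genes picked by symbol (B2m, Tap1, Tap2, Tapbp, Psmb8, Psmb9, Psmb10, Cd74, Ciita, Nlrc5 and Cd1d1). They are 45 of the 49548 genes in the table, and the rule uses symbols and biotype only. Expression was measured by 3′ mRNA sequencing (QuantSeq), which reads the 3′ ends of polyadenylated transcripts, in 6 libraries of cancer-associated fibroblasts (CAFs) sorted from colonic adenomas. All mice were C57/BL6 with the genotype Col6a1-cre, Rosa26-mTmG, and all had received AOM/DSS, a carcinogen (azoxymethane) followed by the irritant dextran sodium sulfate, which induces colitis-associated tumors. The 2 groups were the Col6a1Cre-GFP+ cells (Col6a1+ CAFs, 3 libraries) and the Col6a1Cre-Tomato+ cells (Col6a1- CAFs, 3 libraries), both negative for CD45, EpCAM, CD31 and Ter119. GFP marks a cell in which Col6a1-Cre was active at some time, and this Cre is active mainly in a subset of intestinal fibroblasts and in perivascular cells. Each library came from pooled tumors of several mice, so p-values measure the spread between pools, and no tumor-free or untreated cells were analysed here.

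MHC class I molecules display peptides from the inside of the cell to CD8+ T cells. Their peptides are cut by the proteasome, in which the interferon-induced subunits Psmb8, Psmb9 and Psmb10 can replace the constitutive catalytic subunits, are pumped into the endoplasmic reticulum by Tap1 and Tap2, and are loaded with the help of tapasin (Tapbp) onto a heavy chain bound to the light chain B2m. MHC class II molecules display peptides from endosomes to CD4+ T cells, with the invariant chain Cd74 as chaperone and H2-DM as the peptide exchanger. Class II is made mainly by dendritic cells, macrophages and B cells, while fibroblasts and intestinal epithelial cells can make it under interferon gamma. The comparison asks whether the GFP+ and Tomato+ CAFs of the same tumors differ in this machinery.

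The sums of normalized counts, which carry the authors' scaling, lay between 3039152 and 3425249 per library. Col6a1+ replicate 1 detected 14530 genes with 1 normalized count or more, and the other 5 libraries detected 18770 to 20511. Col6a1 itself had 861, 1287 and 1941 normalized counts in Col6a1+ CAFs and 182, 321 and 102 in Col6a1- CAFs (replicates 1, 2 and 3, the order used throughout), and was higher in the cells labelled Col6a1+ (log2 fold change 2.82, limma adjusted p = 0.00613). All fold changes are Col6a1+ over Col6a1- CAFs, on the log2(normalized count + 1) scale, and a gene was called at a limma adjusted p under 0.05 over the 26402 genes detected in any library. Both subsets differed in their markers. All 8 mural markers tested and 5 of the 8 fibroblast markers were called higher in Col6a1+ CAFs. Of the 12 epithelial markers, 9 were called lower, with summed counts of 5915 to 6620 in Col6a1+ and 20884 to 35328 in Col6a1- CAFs. The 8 fibroblast markers summed to 41971 to 46808 in Col6a1+ and 8708 to 15920 in Col6a1- CAFs. In each Col6a1- library the epithelial sum was thus above the fibroblast sum, and in each Col6a1+ library it was below. No epithelial marker was at 0 in all libraries, although the sort removed EpCAM+ cells. The part of these markers in the results below was not tested.

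The class I light chain and tapasin had their 3 higher libraries among the Col6a1+ CAFs, the classical class I heavy chains overlapped between the subsets, and 2 class II genes, Cd74 and H2-Aa, had their 3 higher libraries among the Col6a1- CAFs. Only H2-M9, a class Ib heavy chain, passed the test. Of the 45 genes, 10 were at 0 in all 6 libraries, 35 were tested, and 26 had a mean of at least 10 normalized counts. Of the 35, 1 was called higher in Col6a1+ CAFs and 0 were called lower, where 2.66% and 1.96% of all tested genes were called. At an unadjusted limma p under 0.05, 4 were higher (H2-M9, Tapbp, B2m and H2-Q7) and 3 lower (Cd74, H2-Aa and H2-Q2), where all tested genes gave 6.63% and 9.40%. The 3 and 3 libraries did not overlap for 5 genes that were higher in Col6a1+ CAFs (H2-M9, Tapbp, B2m, H2-Q7 and H2-Q10) and for 3 that were lower (Cd74, H2-Aa and H2-Q2), where 7.91% and 11.6% of all tested genes showed such a separation (14.2% and 17.6% of those that averaged 10 or more). By the unadjusted p and by the separation alike, lower members were thus no more frequent than lower genes among all tested. Higher members were more frequent than higher genes among all tested, on few genes. The median log2 fold change of the 35 genes was 0.22, beside -0.27 for all genes tested, and it became -0.16 without Col6a1- replicate 3.

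**Figure D1:**
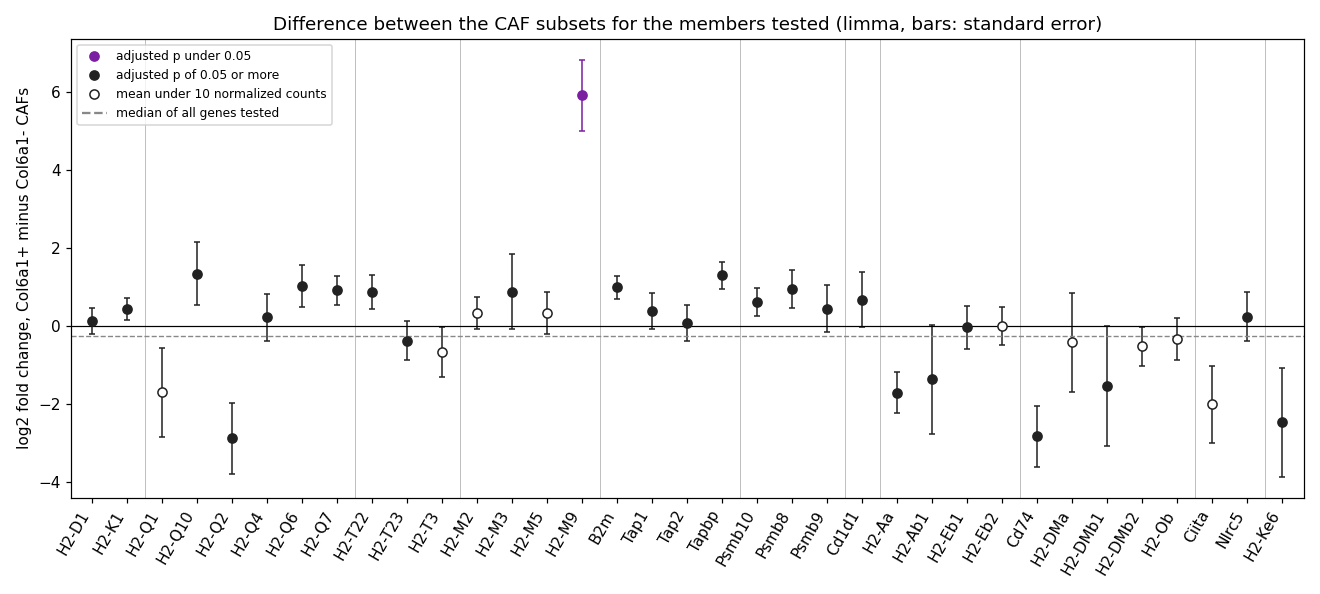
Log2 fold change (Col6a1+ minus Col6a1- CAFs, vertical axis) of the 35 antigen presentation genes tested, ordered by role, with limma standard errors as bars. H2-M9 stands at 5.91, the other genes lie between -2.88 and 1.34, and the dashed line marks the median of all tested genes at -0.27.

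Replicate numbers were read as pairs of libraries, an assumption that the labels do not state and that is described under the processing. With the number as a block, no gene of the whole table was called when all 26402 were tested (smallest adjusted p = 0.0612). With the block among the 13515 genes that averaged 10 or more, H2-M9 and Tapbp were called higher and Cd74 and H2-Aa lower, where 7.26% and 6.44% of those genes were called. In all 3 same-numbered pairs, 11 of the 26 members that averaged 10 or more were higher in the Col6a1+ library and 5 were lower, where 21.8% and 28.3% of all such genes were.

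**Figure D2:**
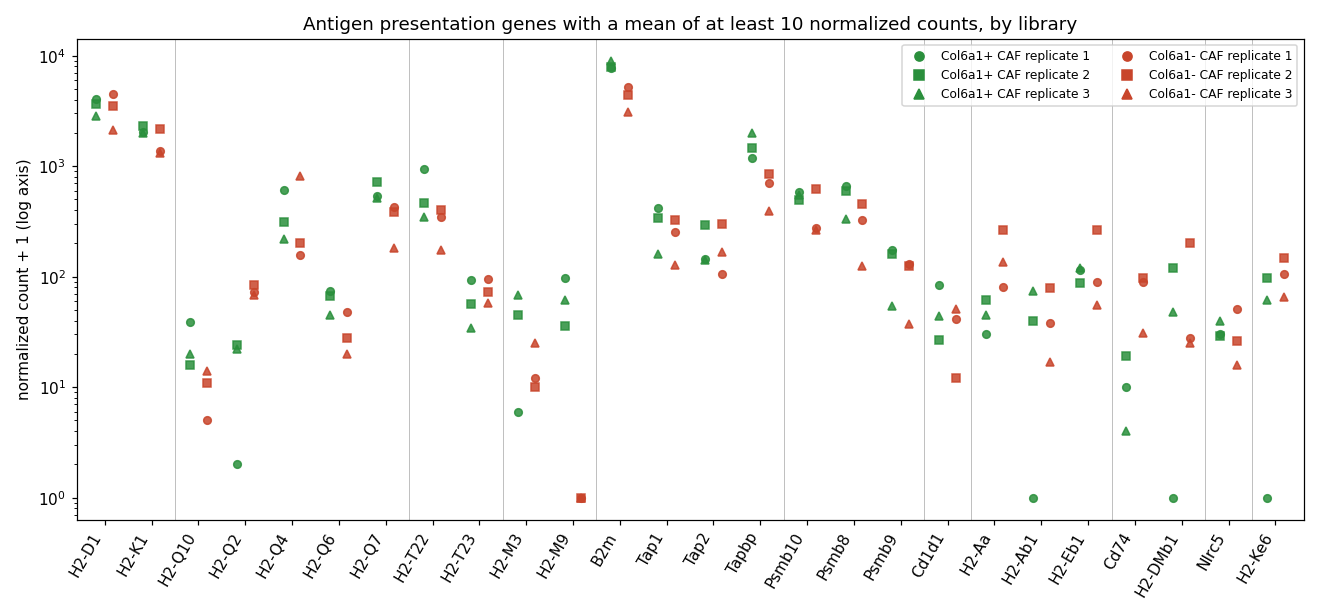
Normalized count + 1 (vertical log axis) of the 26 members that averaged 10 or more, 1 point for each library, with Col6a1+ CAFs in green and Col6a1- CAFs in red and the shape giving the replicate. B2m ran from 7722 to 9010 in Col6a1+ and from 3086 to 5254 in Col6a1- CAFs, and H2-M9 was at 0 in each Col6a1- library.

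The promoters of 4 members are shown because they stand for the 4 patterns in the data: H2-K1 as a classical class I gene that did not separate the subsets, B2m as the light chain, H2-M9 as the gene that was called, and H2-Aa as a class II gene with the opposite sign. Each is the stretch of 250 bases before the transcription start, read 5′ to 3′ on the gene's strand, from RefSeq on GRCm38.p6 (the first entry where the gene has several). H2-K1 lies at chr17:34000348-34000597 (minus strand), B2m at chr2:122147437-122147686 (plus), H2-M9 at chr17:36642664-36642913 (minus) and H2-Aa at chr17:34287824-34288073 (minus). Capitals mark matches to the motifs described after them.
H2-K1: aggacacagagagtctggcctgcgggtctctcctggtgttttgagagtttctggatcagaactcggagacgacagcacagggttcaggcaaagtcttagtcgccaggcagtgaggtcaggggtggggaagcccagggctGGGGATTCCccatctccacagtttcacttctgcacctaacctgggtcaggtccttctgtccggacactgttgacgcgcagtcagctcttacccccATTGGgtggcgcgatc
B2m: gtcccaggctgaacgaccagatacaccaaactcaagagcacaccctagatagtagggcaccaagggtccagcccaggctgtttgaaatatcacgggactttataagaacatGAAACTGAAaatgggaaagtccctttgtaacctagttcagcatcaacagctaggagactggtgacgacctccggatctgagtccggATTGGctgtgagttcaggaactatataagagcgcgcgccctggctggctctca
H2-M9: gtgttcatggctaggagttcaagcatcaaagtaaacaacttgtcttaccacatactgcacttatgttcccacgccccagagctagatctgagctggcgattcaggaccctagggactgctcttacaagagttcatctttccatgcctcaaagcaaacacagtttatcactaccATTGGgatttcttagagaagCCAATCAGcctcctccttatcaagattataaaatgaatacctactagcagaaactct
H2-Aa: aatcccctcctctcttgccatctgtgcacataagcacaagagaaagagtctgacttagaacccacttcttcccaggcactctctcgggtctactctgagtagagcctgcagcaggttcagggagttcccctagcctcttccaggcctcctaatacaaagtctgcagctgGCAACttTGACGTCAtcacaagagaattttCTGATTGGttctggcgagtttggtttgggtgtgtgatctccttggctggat

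MHC promoters are known for a composite element of an X box, an X2 box and a Y box, the last a CCAAT box bound by NF-Y, and class I promoters also carry a kappa B site and an interferon-stimulated element. The 6 motifs were searched on both strands over the 250 bases, in the promoters of 37 of the 45 genes and in all 32851 promoters listed. CTGATTGG, a Y box form that contains the CCAAT box, was found in 18 of the 37 genes and in 3.83% of all promoters. In H2-Aa it begins at position -51 from the transcription start, behind TGACGTCA (an X2 box form) at -74 and GCAAC (an X box core) at -81. TGACGTCA was in 1 of the 37 genes and in 1.55% of all promoters, and GCAAC in 11 genes and in 29.9%. In H2-M9 the same 8 letters stand on the other strand, at -57, with a further CCAAT box, read as ATTGG, at -77. CTGATTGG was also found in H2-M1, H2-M10.1, H2-M10.3, H2-M10.4, H2-M10.5, H2-M10.6 and H2-M11, genes that had no counts in any library. GGGGATTCC, a kappa B form, was found in H2-K1 (at -111), H2-D1, H2-Q6 and H2-Q7, which is 4 of the 37 genes, and in 0.213% of all promoters. GAAANNGAA, an interferon-stimulated element form, was found in B2m (at -139), H2-T22 and H2-T23, which is 3 of the 37 genes, and in 7.13% of all promoters. CCAAT alone was in 32 of the 37 genes and in 33.8% of all promoters, at -53 in B2m and at -16 in H2-K1, where it reads as ATTGG. These are matches of letters within the window, not sites. Other forms of the interferon-stimulated element were not searched. A promoter without a match to GAAANNGAA, such as that of H2-K1, was thus not shown to lack the element.

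H2-M9 (ENSMUSG00000067201, chr17:36639285-36642666, minus strand, mm10) is a class Ib heavy chain of the M region, and belongs to the H2-Mv family known from sensory neurons of the vomeronasal organ. It had 97, 35 and 60 normalized counts in Col6a1+ CAFs and 0, 0 and 0 in Col6a1- CAFs. The transcript was thus seen in all libraries of the GFP+ subset and in none of the Tomato+ subset. Taking 3 counts as the level that a count of 0 allows in a library, the mean of 64 ± 31.2 (SD, n = 3) in Col6a1+ CAFs was at least 21.3-fold higher. In the fit this was 5.91 on the log2 scale (standard error 0.91) with a limma adjusted p of 0.00587. The adjusted p was 0.0621 with the replicate block over all tested genes and 0.00980 with the block among genes with a mean of at least 10. When any of the 6 libraries was left out the call was lost, with adjusted p between 0.0503 and 0.140, although the fold change stayed between 5.55 and 6.27.

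The other 8 H2-Mv genes (H2-M1, H2-M10.1 to H2-M10.6 and H2-M11) were at 0 in all 6 libraries. The closest match to the last 250 bases of H2-M9 among the other annotated transcripts was H2-M1, with 87.5% identity over 240 bases. H2-M3, the class Ib chain that presents N-formylated bacterial and mitochondrial peptides, had 5, 44 and 68 normalized counts in Col6a1+ CAFs and 11, 9 and 24 in Col6a1- CAFs. Its highest libraries were Col6a1+ replicates 2 and 3 and its lowest was Col6a1+ replicate 1, so the groups overlapped (log2 fold change 0.88, adjusted p = 0.642). Its log2 fold change was 1.95 without Col6a1+ replicate 1 (adjusted p = 0.149) and 0.19 without Col6a1+ replicate 3. H2-M2 and H2-M5 did not exceed 1 normalized count in any library.

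The classical class I heavy chains H2-K1 and H2-D1, which present most peptides to CD8+ T cells, were well covered in both subsets. H2-K1 (chr17:33996017-34000333, minus strand) had 2051, 2315 and 1995 normalized counts in Col6a1+ CAFs and 1378, 2150 and 1310 in Col6a1- CAFs. Col6a1- replicate 2 lay within the Col6a1+ range and the other Col6a1- libraries below it (log2 fold change 0.43, standard error 0.28, adjusted p = 0.519). H2-D1 (chr17:35262730-35267499, plus strand) had 4069, 3672 and 2825 normalized counts in Col6a1+ and 4478, 3505 and 2115 in Col6a1- CAFs. Its highest and its lowest library were both Col6a1- (log2 fold change 0.12, standard error 0.33, adjusted p = 0.866). The last 250 bases of an H2-K1 transcript are 96.4% identical to a stretch of an H2-D1 transcript, so reads of either gene can be assigned to the other.

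B2m (ENSMUSG00000060802, chr2:122147686-122153083, plus strand), the light chain of all class I molecules, had 7722, 7891 and 9010 normalized counts in Col6a1+ CAFs and 5254, 4383 and 3086 in Col6a1- CAFs. The highest Col6a1- library lay below the lowest Col6a1+ library. The means were 8208 ± 699.96 and 4241 ± 1091 (SD, n = 3 each), and their difference on the log2 scale, 0.98 (standard error 0.29), did not pass the test (limma adjusted p = 0.0971). With limma-voom the adjusted p was 0.0166, and over all alternatives it ran from 0.0166 to 0.388.

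Tapbp (ENSMUSG00000024308, chr17:33915899-33929288, plus strand), which encodes tapasin, the bridge between the peptide transporter and the empty class I molecule, had 1190, 1467 and 1982 normalized counts in Col6a1+ CAFs and 700, 858 and 391 in Col6a1- CAFs. Here too all 3 Col6a1+ libraries were above all 3 Col6a1- libraries, and the gap was widest in replicate 3. Tapbp reached 1.29 on the log2 scale (standard error 0.35, adjusted p = 0.0666), and the adjusted p was 0.0442 with the replicate block among genes with a mean of at least 10 and 0.0344 with limma-voom. Tapbp shares 3421 bases with Zbtb22 on the same strand, which had 80 to 208 normalized counts, so reads there can belong to either gene.

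The peptide transporter did not separate the subsets. Tap1 had 419, 340 and 161 normalized counts in Col6a1+ CAFs and 252, 326 and 126 in Col6a1- CAFs (log2 fold change 0.38, adjusted p = 0.642). In both subsets replicate 3 was the lowest. Tap2 had 143, 294 and 141 normalized counts in Col6a1+ and 104, 300 and 165 in Col6a1- CAFs (log2 fold change 0.07, adjusted p = 0.953), and replicate 2 was the highest in both subsets. Of the 13 loading and trimming helpers measured, among them the chaperones Calr and Canx, the aminopeptidase Erap1 and the proteasome activators Psme1 and Psme2, 0 were called in either direction by limma or limma-voom, 0 and 2 had an unadjusted p under 0.05 (higher and lower), and the median log2 fold change was -0.14. The 2 lower ones were Npepps (log2 fold change -0.78) and Tapbpl (-0.84). For both, every Col6a1+ library was below every Col6a1- library.

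The 3 immunoproteasome genes had positive fold changes that did not pass the test. Psmb8 had 659, 598 and 334 normalized counts in Col6a1+ CAFs and 327, 457 and 123 in Col6a1- CAFs (log2 fold change 0.94, standard error 0.48, adjusted p = 0.375). The groups overlapped only through Col6a1+ replicate 3, and the Col6a1+ library was the higher in each same-numbered pair. Psmb9 had 174, 159 and 53 normalized counts in Col6a1+ and 129, 125 and 36 in Col6a1- CAFs (log2 fold change 0.44, adjusted p = 0.692), again with replicate 3 lowest in both and all pairs in the same direction. Psmb9 and Tap1 share 212 bases on opposite strands. Psmb10, which lies on chromosome 8 outside the MHC, had 581, 497 and 547 normalized counts in Col6a1+ and 275, 619 and 264 in Col6a1- CAFs (log2 fold change 0.60, adjusted p = 0.463). Its Col6a1+ libraries were close together, and Col6a1- replicate 2 was the highest of all.

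The constitutive catalytic subunits Psmb5, Psmb6 and Psmb7 had a median log2 fold change of -0.38, with 0 of 3 called by limma or limma-voom and 1 (Psmb7) lower at an unadjusted p under 0.05. The summed count of the 3 immunoproteasome genes divided by that of the 3 constitutive genes was 1.70, 1.08 and 1.17 in Col6a1+ CAFs and 0.590, 1.01 and 0.318 in Col6a1- CAFs. This ratio was higher in each Col6a1+ library than in any Col6a1- library, with the closest values in replicate 2 of each subset. It is given as a description, without a test.

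Among the Q region class I genes, H2-Q6 and H2-Q7 encode Qa-2, a non-classical class I antigen, and H2-Q10 encodes a secreted class I chain known from the liver. H2-Q7 had 531, 722 and 510 normalized counts in Col6a1+ CAFs and 426, 383 and 181 in Col6a1- CAFs. The groups did not overlap (log2 fold change 0.91, standard error 0.37, adjusted p = 0.242). H2-Q6 had 74, 66 and 44 normalized counts in Col6a1+ and 47, 27 and 19 in Col6a1- CAFs, with Col6a1- replicate 1 just above Col6a1+ replicate 3 (log2 fold change 1.02, adjusted p = 0.390). H2-Q10 had 38, 15 and 19 normalized counts in Col6a1+ and 4, 10 and 13 in Col6a1- CAFs (log2 fold change 1.34, adjusted p = 0.475). The separation of H2-Q10 was by 2 normalized counts, between 15 and 13, and its levels were low throughout.

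H2-Q2 showed the opposite sign. It had 1, 23 and 21 normalized counts in Col6a1+ CAFs and 72, 84 and 67 in Col6a1- CAFs, so that all Col6a1- libraries were above all Col6a1+ libraries (log2 fold change -2.88, standard error 0.91, adjusted p = 0.118). Without Col6a1+ replicate 1, the library with the fewest detected genes, the log2 fold change was -1.71. H2-Q1, whose last 250 bases are 95.6% identical to H2-Q2, had 0, 4 and 5 normalized counts in Col6a1+ and 5, 28 and 5 in Col6a1- CAFs. H2-Q4 had 605, 312 and 217 normalized counts in Col6a1+ and 157, 202 and 818 in Col6a1- CAFs. Its highest library, Col6a1- replicate 3, was the lowest of the 6 for H2-K1, H2-D1, H2-Q6, H2-Q7 and H2-T22, and the Col6a1+ libraries of H2-Q4 all lay inside the Col6a1- range (log2 fold change 0.22, adjusted p = 0.858). The 3′ ends of H2-Q4 and H2-Q6 each hold a stretch of 99.1% (106 bases, Olfr90) or 99.0% (206 bases, Efr3a) identity to another gene.

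The T region holds H2-T22, a ligand of gamma delta T cells that binds no peptide, H2-T23, which encodes Qa-1, the ligand of the inhibitory receptor NKG2A, and H2-T3, the thymus leukemia antigen of the intestinal epithelium. H2-T22 had 937, 466 and 345 normalized counts in Col6a1+ CAFs and 347, 400 and 174 in Col6a1- CAFs (log2 fold change 0.88, adjusted p = 0.366). The Col6a1+ library was the higher in each same-numbered pair, although Col6a1+ replicate 3 lay within the Col6a1- range. The last 250 bases of an H2-T22 transcript are 98% identical to a stretch of an H2-T10 transcript, so these counts can hold reads of both. H2-T23 had 93, 56 and 33 normalized counts in Col6a1+ and 95, 71 and 57 in Col6a1- CAFs, lower in each pair but with wide overlap (log2 fold change -0.38, adjusted p = 0.667). H2-T3 did not exceed 3 normalized counts in any library, and H2-T24 was at 0 in all.

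Summed over the 24 class I heavy chain genes, of which 15 were tested, the libraries held 8502, 7732 and 6143 normalized counts in Col6a1+ CAFs and 7020, 6871 and 4786 in Col6a1- CAFs, which overlap. The sum of B2m, Tap1, Tap2 and Tapbp was 9474, 9992 and 11294 in Col6a1+ and 6310, 5867 and 3768 in Col6a1- CAFs, which do not overlap, and most of it was B2m. In bulk libraries, fewer cells that express a gene and less of its RNA per cell cannot be told apart.

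**Figure D3:**
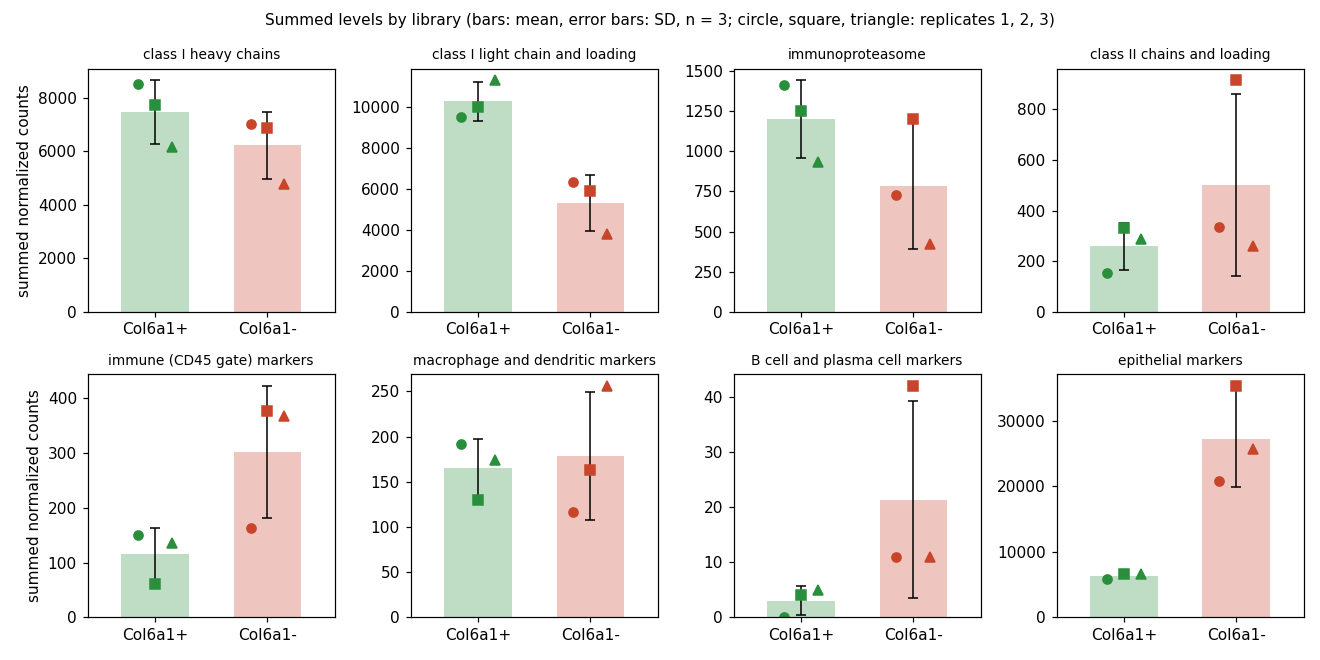
Summed normalized counts per library (vertical axes, starting at 0) of 4 role groups in the upper row and 4 marker lists in the lower row. Bars are means, error bars SD (n = 3) and points the libraries, with class II at 152 to 332 in Col6a1+ and 259 to 916 in Col6a1- CAFs.

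The class II genes were low in both subsets, and 0 of the 9 tested were called by limma or limma-voom, with 2 (Cd74 and H2-Aa) lower at an unadjusted p under 0.05. Cd74 (ENSMUSG00000024610, chr18:60803848-60812646, plus strand), the invariant chain, had 9, 18 and 3 normalized counts in Col6a1+ CAFs and 89, 96 and 30 in Col6a1- CAFs. Every Col6a1- library was above every Col6a1+ library, and the log2 differences within the pairs were -3.17, -2.35 and -2.95. On the log2 scale the groups differed by -2.83 (standard error 0.78), with a limma adjusted p of 0.0736, or of 0.0236 with the replicate block among genes with a mean of at least 10. Over the alternatives the adjusted p of Cd74 ran from 0.0236 to 0.389.

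H2-Aa (ENSMUSG00000036594, chr17:34282744-34287827, minus strand), the alpha chain of I-A, had 29, 61 and 44 normalized counts in Col6a1+ CAFs and 80, 264 and 135 in Col6a1- CAFs. The groups did not overlap, and in both the highest library was replicate 2. The log2 fold change was -1.71 (standard error 0.52, adjusted p = 0.0996, and 0.0248 with the replicate block among genes with a mean of at least 10). H2-Ab1, the beta chain that pairs with it, had 0, 39 and 73 normalized counts in Col6a1+ and 37, 78 and 16 in Col6a1- CAFs. The beta chain had the same sign as the alpha chain, but its libraries overlapped and its error was too wide to compare the 2 chains. Col6a1+ replicate 3 was near the top and Col6a1- replicate 3 near the bottom (log2 fold change -1.37, standard error 1.40, adjusted p = 0.642, and 0.55 on the log2 scale without Col6a1+ replicate 1).

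H2-Eb1 encodes the beta chain of I-E, whose alpha chain C57BL/6 mice do not make. It had 113, 87 and 118 normalized counts in Col6a1+ CAFs and 88, 264 and 54 in Col6a1- CAFs (log2 fold change -0.04, adjusted p = 0.987), with the Col6a1- libraries on both sides of the Col6a1+ range. The peptide exchanger subunit H2-DMb1 had 0, 118 and 47 normalized counts in Col6a1+ and 27, 202 and 24 in Col6a1- CAFs, and its partner H2-DMa had 0, 8 and 4 and then 11, 8 and 0. For both the libraries overlapped, and the log2 fold changes of -1.55 and -0.42 became 0.53 and 0.49 without Col6a1+ replicate 1. H2-Eb2 had 1, 0 and 0 normalized counts in Col6a1+ and 0, 1 and 0 in Col6a1- CAFs. H2-DMb2 had 0 in every library but Col6a1- replicate 2, with 2, and H2-Ob, a subunit of the H2-DM inhibitor H2-O, had 0, 1 and 0 and then 1, 1 and 0. Its partner H2-Oa was at 0 in all 6 libraries.

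Markers of the cells that make class II were also low. Of the 11 immune markers 0 were called by limma, 2 were called lower by limma-voom and 5 were lower at an unadjusted p under 0.05. They had a median log2 fold change of -1.10 and summed to 150, 61 and 135 normalized counts in Col6a1+ CAFs and to 163, 376 and 367 in Col6a1- CAFs, with Ptprc (CD45) at 0, 2 and 0 and then at 7, 8 and 3. The macrophage and dendritic cell markers summed to 130 to 192 in Col6a1+ and 117 to 256 in Col6a1- CAFs, with Cd209a and Clec9a at 0 in all. Of the 15 entries tested, 6 had a positive and 9 a negative log2 fold change (median -0.44). Itgam was entered under 2 gene IDs, both among the negative ones. Zbtb46 was called higher in Col6a1+ CAFs, and 3 (Cd68, Mrc1 and Itgax) were lower at an unadjusted p under 0.05. Besides Zbtb46, the positive ones were Adgre1, Csf1r, C1qa, C1qb and C1qc, with at most 9 normalized counts in any library. Without Zbtb46, a sum added after seeing the data, these markers held 59, 42 and 69 normalized counts in Col6a1+ and 97, 131 and 226 in Col6a1- CAFs. The B cell and plasma cell markers summed to 0 to 5 in Col6a1+ and 11 to 42 in Col6a1- CAFs, with Pax5, Ms4a1 and Cd79b at 0 in all. The immune, B cell and epithelial sums were thus each higher in every Col6a1- library, as Cd74 and H2-Aa were. The full macrophage and dendritic sum overlapped between the subsets and separated only without Zbtb46. The endothelial and erythroid sums overlapped too, with endothelial markers at 345, 121 and 317 in Col6a1+ and 135, 280 and 340 in Col6a1- CAFs. Of the 8 endothelial markers, 7 had a negative log2 fold change (median -1.59), 2 of them (Cdh5 and Cldn5) at an unadjusted p under 0.05. The other, Tie1, was called higher, with 220, 56 and 152 normalized counts in Col6a1+ and 1, 7 and 21 in Col6a1- CAFs. The part of these marker differences in the class II values was not tested.

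The class II processing list (lysosomal proteases and their inhibitor Cst3, the thiol reductase Ifi30, the tetraspanin Cd63 and the ubiquitin ligases March1 and March8) held 1 called gene among 11 tested. Ctss, the lysosomal protease that trims the invariant chain, had 42, 58 and 72 normalized counts in Col6a1+ CAFs and 153, 306 and 244 in Col6a1- CAFs. It was lower in Col6a1+ CAFs, with a wide gap between the groups (log2 fold change -1.99, standard error 0.40, adjusted p = 0.0205). With the replicate block among genes with a mean of at least 10, 1 of the 11 genes was called higher and 2 lower, and the median log2 fold change was 0.51.

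**Figure D4:**
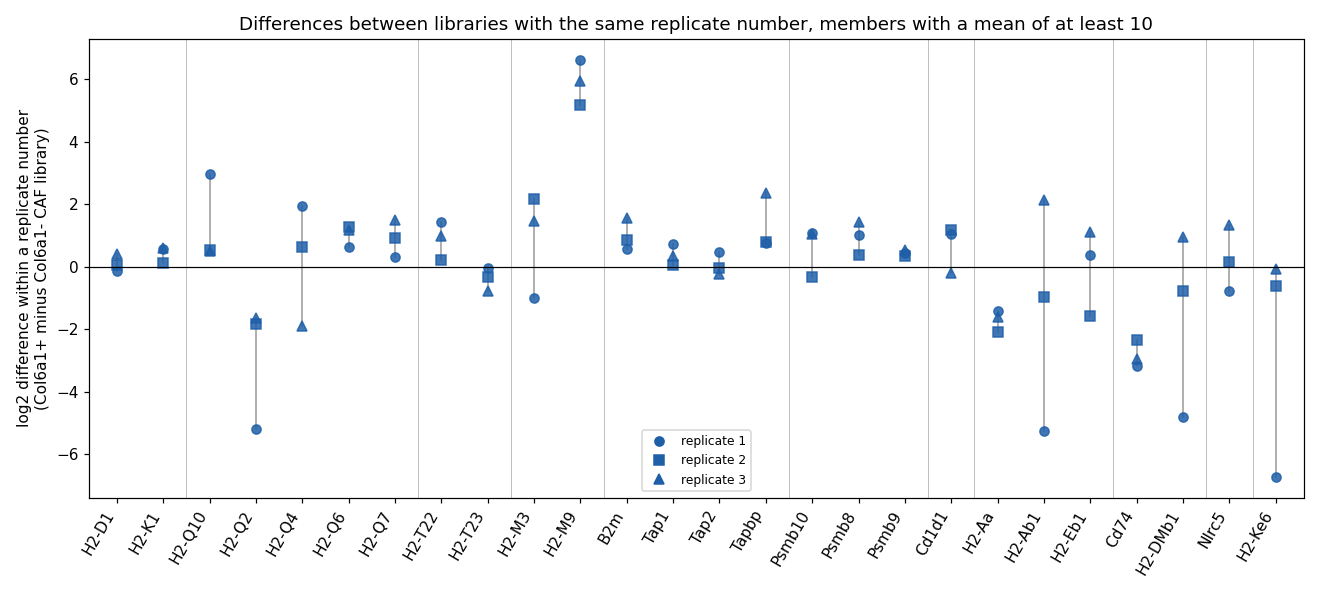
Log2 difference between the Col6a1+ and the Col6a1- library with the same replicate number (vertical axis) for the 26 members that averaged 10 or more, 1 point for each of the 3 pairs. H2-M9 lies between 5.17 and 6.61, Cd74 between -3.17 and -2.35 and H2-Aa between -2.10 and -1.43, while H2-Ab1 runs from -5.25 to 2.12.

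The transactivators of the 2 classes did not pass the test. Ciita, which switches on class II genes, had 0, 2 and 0 normalized counts in Col6a1+ CAFs and 13, 6 and 1 in Col6a1- CAFs (log2 fold change -2.01, adjusted p = 0.357). The Col6a1- library was higher in each pair and no library exceeded 13 normalized counts. Ciita overlaps Dexi on the opposite strand, and Dexi had 123 to 560 normalized counts. Nlrc5, which switches on class I genes, had 29, 28 and 39 normalized counts in Col6a1+ and 50, 25 and 15 in Col6a1- CAFs, with the Col6a1- libraries spread around the Col6a1+ ones (log2 fold change 0.24, adjusted p = 0.850).

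Among further genes for MHC transcription and interferon gamma signalling, Irf8, Iigp1 and Cxcl9 were called higher in Col6a1+ CAFs. Irf8, an interferon regulatory factor, had 229, 345 and 252 normalized counts in Col6a1+ and 87, 116 and 81 in Col6a1- CAFs (log2 fold change 1.53, standard error 0.34, adjusted p = 0.0311). The GTPase Iigp1 had 993, 1298 and 755 normalized counts in Col6a1+ and 225, 230 and 99 in Col6a1- CAFs (log2 fold change 2.52, adjusted p = 0.00558). The chemokine Cxcl9 had 605, 679 and 370 normalized counts in Col6a1+ and 137, 130 and 53 in Col6a1- CAFs (log2 fold change 2.43, adjusted p = 0.0108). For each of these genes every Col6a1+ library was above every Col6a1- library. The cytokine gene Ifng had 0 to 3 normalized counts in any library.

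Cd1d1 (chromosome 3), which presents lipids to NKT cells, had 84, 26 and 43 normalized counts in Col6a1+ CAFs and 40, 11 and 50 in Col6a1- CAFs, with overlapping groups (log2 fold change 0.67, adjusted p = 0.642, and 0.026 on the log2 scale without Col6a1- replicate 2). Of 7 tested class I relatives outside the MHC symbols, 2 were called higher in Col6a1+ CAFs and 0 lower. Fcgrt, the neonatal Fc receptor, which pairs with B2m, had 413, 807 and 933 normalized counts in Col6a1+ and 137, 207 and 74 in Col6a1- CAFs (log2 fold change 2.39, adjusted p = 0.0131). Procr, the endothelial protein C receptor, a class I fold that does not pair with B2m, had 2174, 2204 and 1376 and then 389, 400 and 292 (log2 fold change 2.39, adjusted p = 0.00203). The groups were far apart for both. Of 12 tested costimulatory and checkpoint ligands 0 were called by limma, and 1 was higher and 2 were lower at an unadjusted p under 0.05, with a median log2 fold change of 0.27. Limma-voom called 1 of them lower, and the replicate block among genes that averaged 10 or more called Cd40 higher (adjusted p = 0.0376) and Nectin2 lower (adjusted p = 0.0178).

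H2-Ke6 carries the H2 name for its place in the MHC, but encodes a hydroxysteroid dehydrogenase and no MHC chain. It had 0, 96 and 61 normalized counts in Col6a1+ CAFs and 104, 147 and 65 in Col6a1- CAFs, with overlap between 96 and 65 (log2 fold change -2.47, adjusted p = 0.434, and -0.38 without Col6a1+ replicate 1). The end of an H2-Ke6 transcript is identical over 249 bases to a stretch of Gm20427, which overlaps it on the same strand.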

How the data were processed

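The authors mapped the QuantSeq reads to mm10 with TopHat2 and Bowtie2, counted reads per gene and tested them with DESeq. They deposited log2(normalized count + 1) for each gene and library, and 100% of the values return to whole normalized counts within 0.01. How the counts were scaled and whether strand was used in counting are not given in the sources used here. A further 6 columns of per-sample values were not used, nor were the columns of the authors' own comparison (p-value, false discovery rate and fold change).

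Groups and replicate numbers come from the labels. In R 4.3.3 with limma 3.58.1, the 2 groups were compared on the deposited log2 values of the 26402 genes that summed to 1 or more (lmFit, then eBayes with a variance trend, 4 residual and 6.48 prior degrees of freedom), with Benjamini-Hochberg adjustment over all of them. On simulated data of 25059 genes with 200 changed 8-fold, the same test called 161 of the changed genes (80.5%) and 2 others. The changed genes were drawn from those with a mean of at least 10, and all genes had the same dispersion and no replicate effect. Smaller changes, such as those of B2m and Tapbp, were not simulated. Alternatives were library size alone, a pseudocount of 0.1, a mean of at least 10, at least 10 in every library, limma-voom, the replicate block with and without a mean of at least 10, and leaving out each library. Deviations from the group means correlated at 0.245, 0.125 and 0.144 between same-numbered libraries over 13515 genes, and at -0.245 to 0.150 between the others. Every same-numbered value was over 0.1, and the numbers were read as pairs on that ground. Col6a1+ replicate 2 and Col6a1- replicate 3 also correlated at 0.150, above the same-numbered 0.125 and 0.144. The correlations thus do not establish the pairing, and results by block or by pair depend on it.

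The members and gene lists were chosen with earlier results of these data known. Named with their values are the classical class I, light chain, loading, proteasome, class II, transactivator and CD1 genes, other H2- genes with a mean of at least 10 or an adjusted p under 0.05, and from each further list up to 3 called genes in each direction with a mean of at least 10. Genes named outside this rule were chosen after their values were seen. For the MHC transcription and interferon gamma signalling lists, 1 item and the counts over the lists are not reported here. A count of 0 was taken to allow 3 counts. This limit covers counting error only. Promoters are from RefSeq (GRCm38.p6), and 3′ ends (250 bases) were compared over the GENCODE M21 transcripts with BLAST 2.17.0. Tables were made with Python 3.11.15, pandas 2.3.3 and NumPy 2.4.6, and plots with Matplotlib 3.10.9.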

Additional observations from a re-analysis of the deposited data

How the results depend on the processing

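Leaving out any library left 0 of the antigen presentation genes called. The count called higher (1) was 2 with at least 10 counts in every library (B2m and Tapbp, with H2-M9 filtered out), 3 with limma-voom (H2-M9, Tapbp and B2m), 0 with the replicate block and 2 with the block and a mean of at least 10, and ran from 0 to 0 when each library was left out. The count called lower (0) was 2 with the block and a mean of at least 10. The other alternatives kept these counts. The members tested were 18 with at least 10 in every library, 35 with limma-voom and 26 with the block and a mean of at least 10. Over all genes, the numbers called higher in these settings were 696 of 9473, 804 of 26402 and 981 of 13515. The 703 called higher in the main test became 0 with the block and 0 to 98 without 1 library. The 517 called lower became 336 with a pseudocount of 0.1, 1006 with limma-voom, 0 with the block, 871 with the block and a mean of at least 10, and 0 to 166 without 1 library. Fewer genes tested or fewer libraries are part of some of these alternatives, and the cause was otherwise not tested. The median log2 fold change of the members ran from -0.16 (without Col6a1- replicate 3) to 0.33 (without Col6a1- replicate 2) when 1 library was left out, and up to 0.43 (at least 10 in every library) under the others. Of 31 named members, 10 changed sign under some alternative, and 1 of them apart from leaving out a library (Tap2, -0.00076 with limma-voom). Without 1 library the log2 fold change ran from -0.24 to 0.95 for H2-Q4, from -0.012 to 0.79 for Tap1, from -0.30 to 0.46 for Tap2, from -2.55 to 0.55 for H2-Ab1, from -0.53 to 0.60 for H2-Eb1, from -1.55 to 0.49 for H2-DMa, from -2.91 to 0.53 for H2-DMb1, from -0.19 to 0.35 for H2-D1, from -0.16 to 0.98 for Psmb9 and from -0.16 to 0.68 for Nlrc5. With no change of sign it ran from 0.19 to 1.95 for H2-M3, from 0.026 to 1.07 for Cd1d1, from -2.18 to -0.89 for H2-Q1, from -3.50 to -1.71 for H2-Q2, from -3.68 to -0.38 for H2-Ke6, from -2.78 to -1.38 for Ciita and from -3.36 to -2.23 for Cd74. With the replicate block over all tested genes no gene of the table was called, so H2-M9, the only member called in the main test, lost its call.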

Other observations

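A further 11 genes with H2- symbols carry another biotype than protein coding in the deposited table and were not counted among the antigen presentation genes. The polymorphic pseudogene H2-Q5 had 70, 149 and 141 normalized counts in Col6a1+ CAFs and 128, 122 and 73 in Col6a1- CAFs, with overlapping groups (log2 fold change 0.12, limma adjusted p = 0.892). H2-T10, the near copy of H2-T22 and also listed as a polymorphic pseudogene, had 91, 60 and 49 normalized counts in Col6a1+ and 67, 66 and 30 in Col6a1- CAFs (log2 fold change 0.33, limma adjusted p = 0.722), again with overlap. H2-K2 and H2-T-ps did not exceed 18 normalized counts, and H2-Ea-ps, the I-E alpha chain locus, was at 0 in all 6 libraries. The microRNA gene Mir5107, which lies inside Cd74 on the same strand, had the same count as Cd74 in 6 of 6 libraries, so the values of both genes cannot be told apart.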
